A study of Saccharomyces cerevisiae with 9 samples.

Results

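Small nucleolar RNAs (snoRNAs) and spliceosomal small nuclear RNAs are listed in the yeast gene tables under names that start with snR. Of 7127 rows in each count table, 81 carried such a name, and the 80 with 10 or more counts summed over the 9 libraries are described here. The summed count is the only measured value in this rule. The rows nearest to the minimum were snR14, with 14 summed counts, and snR7-L, with 15, while snR7-S held 0 counts and fell outside. RefSeq's R64 annotation placed all 80 on the genome and its notes put 47 in the box C/D class, 29 in the box H/ACA class and 4 among the spliceosomal RNAs.

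The study asked how ribosomal RNA synthesis and the transcriptome differ within logarithmic growth, and sampled Saccharomyces cerevisiae at 3 subphases called early log, mid log and late log. The subphases were set by the optical density of the culture. Each subphase had 3 libraries, described as biological triplicates of cells grown in YPD at 30 °C. All 9 came from 1 strain that the labels call WT yeast: MATa cells with the markers ade2-1, ura3-1 and trp1-1, together with leu2-3,112, his3-11 and can1-100, and with the allele RPA135-(HA)3-(His)7::TRP1, which tags the RNA polymerase I subunit Rpa135 in every group, early log included. Of the mating type genes, STE2, which encodes the alpha-factor receptor of MATa cells, had 344, 346 and 330.0 CPM in the early log libraries and STE3, its MATalpha counterpart, 2.74, 3.03 and 2.16 CPM. MFA1, a MATa pheromone gene, had 25.0, 19.6 and 39.2 CPM and SAG1, the MATalpha agglutinin gene, 16.3, 16.6 and 24.1 CPM, so that the receptors differed widely and this other pair lay closer together.

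Most snoRNAs guide enzymes to bases of ribosomal RNA. Box C/D snoRNAs assemble with Nop1, Nop56, Nop58 and Snu13 and direct methylation of the ribose, whereas box H/ACA snoRNAs assemble with Cbf5, Nhp2, Nop10 and Gar1 and direct the conversion of uridine to pseudouridine. A few members of both classes are needed for cleavage of the ribosomal RNA precursor, and the spliceosomal RNAs remove introns from messenger RNA. In yeast most of these RNAs are transcribed by RNA polymerase II from genes of their own, others are cut out of shared precursors that hold several snoRNAs, and some are released from the introns of protein-coding genes. Mature snoRNAs and spliceosomal RNAs have no poly(A) tail, but precursors and extended forms of them can be polyadenylated before trimming or decay by the nuclear exosome. The libraries were made from RNA selected on its poly(A) tail. Counts on these genes therefore need not stand for the mature RNA: polyadenylated forms, host transcripts that cover the gene and untailed RNA carried through the selection cannot be told apart here.

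Many members, and all those printed here, carried a box of their class near the ends of the sequence. The 4 box C/D members with the largest late log over early log fold changes in their class, followed by snR128 (U14), which is needed for release of the small subunit RNA, are given below from the RefSeq R64 genome, 5′ to 3′. Capitals mark the C box TGATGA in the first 20 bases and the D box CTGA in the last 20 bases. The genes lie at chrXI:38811-38911 on the plus strand (snR64), chrV:431129-431220 on the minus strand (snR52), chrII:88190-88277 on the plus strand (snR56), chrXII:348427-348510 on the minus strand (snR79) and chrX:139566-139691 on the minus strand (snR128).
snR64: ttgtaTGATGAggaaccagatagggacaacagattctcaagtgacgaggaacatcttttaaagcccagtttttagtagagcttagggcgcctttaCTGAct
snR52: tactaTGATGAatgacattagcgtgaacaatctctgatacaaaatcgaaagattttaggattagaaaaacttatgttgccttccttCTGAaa
snR56: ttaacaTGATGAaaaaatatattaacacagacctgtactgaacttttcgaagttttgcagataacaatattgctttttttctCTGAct
snR79: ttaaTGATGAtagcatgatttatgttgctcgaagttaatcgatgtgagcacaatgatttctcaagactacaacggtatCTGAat
snR128: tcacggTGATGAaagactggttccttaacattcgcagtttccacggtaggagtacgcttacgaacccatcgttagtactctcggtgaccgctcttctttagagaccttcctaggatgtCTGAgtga

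Searched on the gene's own strand, the letters TGATGA stood in the first 20 bases of 36 of the 47 box C/D members (76.6%), against 3.03% of the other members and 1.48% of 6477 annotated genes. The letters CTGA stood in the last 20 bases of 45 of the 47 (95.7%), against 6.06% and 9.96% in the same comparison sets. On the opposite strand TGATGA was found in the first 20 bases of 0 box C/D members and 0.71% of all genes, and CTGA in the last 20 bases of 4.26% and 4.06%. A match describes letters only, and a member without one may carry a variant of the box.

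A further pair of box C/D genes is shown because neither passed the late log comparison given below and they sit in the introns of a pair of duplicated ribosomal protein genes, snR39 in RPL7A (chrVII:365163-365251, minus strand) and snR59 in RPL7B (chrXVI:173827-173904, plus strand). Both are annotated as guides to the same adenosine of the large subunit RNA and share the 14-base run atcaccatctttcg just before the D box.
snR39: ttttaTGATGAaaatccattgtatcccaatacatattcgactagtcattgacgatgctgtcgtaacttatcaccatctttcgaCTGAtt
snR59: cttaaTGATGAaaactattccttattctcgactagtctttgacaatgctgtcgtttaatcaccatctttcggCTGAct

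For the box H/ACA class the box at the 3′ end is marked. The letters ACA stood in the last 8 bases of 17 of the 29 members (58.6%), against 5.88% of the other members and 5.96% of all genes, and its reverse complement stood there in 0 of the 29 and in 9.96% of all genes. Shown are snR10, needed for precursor cleavage (chrVII:345986-346230, plus strand), snR32 (chrVIII:381540-381727, plus strand) and snR33 (chrIII:142364-142546, minus strand), which have genes of their own, and snR191 (chrXIV:721938-722211, minus strand), which lies in an intron of NOG2.
snR10: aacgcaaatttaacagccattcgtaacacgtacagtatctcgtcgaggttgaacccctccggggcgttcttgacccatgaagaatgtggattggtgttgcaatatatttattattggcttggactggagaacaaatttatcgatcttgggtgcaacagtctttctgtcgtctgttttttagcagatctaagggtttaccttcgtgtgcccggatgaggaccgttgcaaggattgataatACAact
snR32: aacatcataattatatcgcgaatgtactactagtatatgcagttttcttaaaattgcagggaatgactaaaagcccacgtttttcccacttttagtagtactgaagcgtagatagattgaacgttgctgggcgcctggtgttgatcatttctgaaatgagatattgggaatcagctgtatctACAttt
snR33: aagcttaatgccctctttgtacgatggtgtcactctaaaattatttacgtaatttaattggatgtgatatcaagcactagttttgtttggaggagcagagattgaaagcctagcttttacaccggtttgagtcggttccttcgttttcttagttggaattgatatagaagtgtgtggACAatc
snR191: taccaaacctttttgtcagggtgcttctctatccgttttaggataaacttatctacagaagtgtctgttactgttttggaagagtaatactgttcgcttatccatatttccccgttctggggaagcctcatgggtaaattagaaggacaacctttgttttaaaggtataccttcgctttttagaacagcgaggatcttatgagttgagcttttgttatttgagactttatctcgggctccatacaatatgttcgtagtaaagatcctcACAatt

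The libraries held 22830165 to 34358259 counts on genes, and the 80 members took 130200 of these in all. Replicates of a subphase did not resemble each other equally. Mid log replicate 1 and early log replicate 3 stood apart from the other 2 libraries of their subphase: across all genes the chi-square per degree of freedom was 630 and 662 for mid log replicate 1 against its partners and 435 and 488 for early log replicate 3, whereas the other 5 replicate pairs gave 8.65 to 37.1. The paper also describes 1 deviating replicate each in early and mid log. It places them at the upper density limit of early log and the lower density limit of mid log. A link between culture density and the counts of these libraries was not tested here. The libraries were also sequenced in 3 runs: run 1 held early log replicates 1 and 2, run 2 all of mid log, and run 3 the remaining early log library and all of late log. Run and subphase therefore cannot be told apart for mid log, and late log can be set against early log within a run only through early log replicate 3.

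Counts were unevenly spread. The gene snR86 alone took 14.4% of the members' counts, the first 5 genes 39.2% and the first 10 genes 54.7%, while 10 members had fewer than 100 counts in all 9 libraries together, 40 had 100 to 1000 and 30 had more. Box H/ACA members took 69.0% of the counts, box C/D members 30.0% and spliceosomal RNAs 1.04%. Because H/ACA genes are longer (161 to 1004 bases, median 204) than C/D genes (78 to 490 bases, median 98), levels were compared per length. The median level was 35.0 CPM per kilobase for H/ACA members, 18.4 for C/D members and 0.646 for spliceosomal RNAs, with wide overlap between the guide classes (2.66 to 226 and 1.66 to 115). CPM here are gene counts over the library's total, scaled by the trimmed mean of M values (TMM) over the 9 libraries.

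Levels per length covered a wide range. The highest was that of snR44, an H/ACA guide to both ribosomal RNAs inside an intron of RPS22B, with 226 CPM per kilobase averaged over the 9 libraries. It was followed by snR31, an H/ACA guide to the small subunit RNA, with 157, the C/D guide snR57 with 115, snR4, a C/D RNA that directs acetylation of a small subunit cytidine by Kre33, with 115, and the H/ACA guide snR33 with 102. The gene with the most counts, snR86, is also the longest and had 82.2. Low levels were those of the spliceosomal RNAs snR14 (U4), with 0.405, and snR6 (U6), with 0.887 CPM per kilobase. The long form of U5, snR7-L, had 0.302, but 179 of its 214 bases are shared with snR7-S, where reads would be ambiguous, so that its level may be understated and its rank is uncertain.

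**Figure D1:**
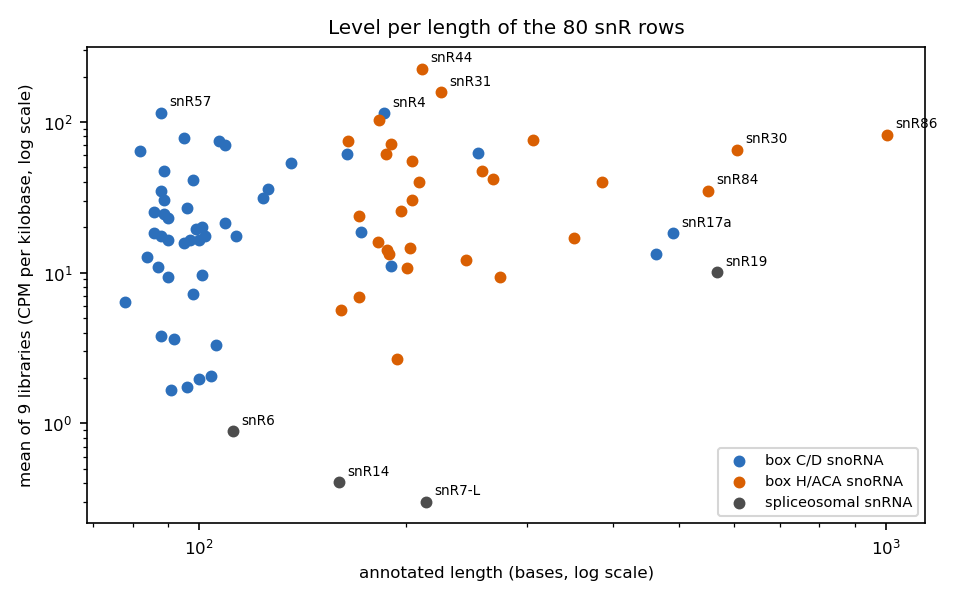
Gene length in bases (horizontal axis) against mean level over the 9 libraries in CPM per kilobase (vertical axis, log scale) for the 80 members, with 1 point per gene and colour for the class. The lowest points are those of the spliceosomal RNAs snR7-L, snR14 and snR6, between 0.302 and 0.887, where that of snR7-L may be understated because most of its bases are shared with snR7-S, and the highest is snR44 at 226.

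Taken as one pool, the members made up a larger share of gene counts in late log than in early log. The share was 0.0429%, 0.0435% and 0.0319% in the early log libraries, 0.0341%, 0.0614% and 0.0570% in the mid log libraries and 0.0700%, 0.0723% and 0.0703% in the late log libraries. All late log libraries lay above all libraries of the other subphases, while mid log replicate 1 lay inside the early log range. Late log averaged 0.0709% ± 0.00125 and early log 0.0394% ± 0.00654 (SD, n = 3 each), a ratio of 1.80, and mid log averaged 0.0508% ± 0.0146, a ratio of 1.29 to early log. As summed CPM, which carry the TMM scaling, the members came to 283 ± 57.5 in early log, 666 ± 284 in mid log and 794 ± 12.3 in late log (SD, n = 3 each), so that the scaling moved the late log ratio to 2.80 and the mid log ratio to 2.35. As these are bulk cultures, fewer cells of a type and less RNA per cell cannot be told apart in any value given here.

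The classes did not contribute alike. The H/ACA share was 1.97 times the early log share in late log, and its summed CPM 3.08 times. The C/D share was 1.51 times the early log share in late log but 0.930 times in mid log, and in summed CPM the C/D ratio for mid log was 1.69, so that its direction depended on the scaling. The spliceosomal share was 1.29 times the early log share in mid log. Without the 5 genes with the most counts the late log ratio of the pool was 1.85.

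**Figure D2:**
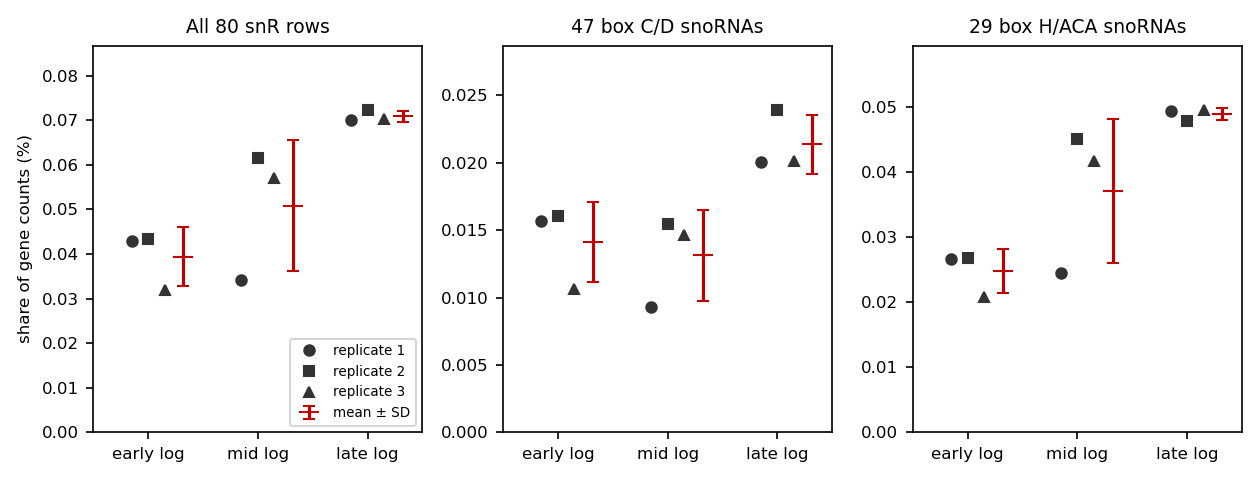
Share of gene counts, in percent, on all 80 members, on the 47 box C/D and on the 29 box H/ACA members (panels) in the 3 subphases, with 1 black symbol per library, shaped by replicate, and the mean ± SD in red. In the H/ACA panel the late log libraries average 0.0489% against 0.0248% in early log, and mid log replicate 1 lies below its 2 partners in every panel.

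Late log was compared with early log gene by gene, to ask which members carried this difference. Of the 71 members with enough counts for the fit, 60 rose in late log and 0 fell (edgeR's quasi-likelihood test, adjusted p of 0.05 or less). Over all 5954 genes tested, 33.0% rose and 39.2% fell, 72.1% in either direction (74.3% at an unadjusted p under 0.05, as 60 members were), and the median log2 fold change was -0.08, against 1.57 for the members. Counting all 80 members, every late log library lay above every early log library in 69, against 37.9% of all genes tested, in 0 members were the late log libraries all below, and in 11 the groups overlapped. The 9 members that could not be tested were snR6, snR7-L, snR14, snR53, snR58, snR60, snR65, snR73 and snR74, all with fewer than 100 summed counts. With a minimum of 10 counts in every library, which does not let a gene in through the group where it is high alone, 56 of 67 members rose.

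The late log difference was there with and without the libraries that stood apart. Without early log replicate 3, 59 of 73 members rose and 1 fell, against 38.4% and 42.4% of all genes. The one that fell was the C/D RNA snR73, with a log2 fold change of -1.53 ± 0.41 (SE) and an adjusted p of 0.00671. Within run 3 alone, all 3 late log libraries were above early log replicate 3 in 78 of 80 members, against 43.8% of all genes tested, and the median log2 ratio over the 71 tested members was 2.06, against 1.46 when late log was set against the mean of early log replicates 1 and 2 of run 1. With the run as a term of the fit, 43 of 72 members rose and 0 fell, against 24.1% of all genes called in either direction, and the median was 2.04. In the fits that each left out a library, 54 of the 60 members were past the threshold every time.

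Mid log against early log gave fewer calls. Of 70 members tested, 21 rose in mid log and 0 fell, against 20.7% of all genes tested that rose, 24.2% that fell and 44.9% in either direction (55.2% at an unadjusted p under 0.05, as 34 members were), and the median log2 fold change was 1.10 for the members and -0.12 for all genes. In 26 of the 80 members every mid log library was above every early log library, against 27.2% of all genes tested. This number of calls turned on single libraries. Without mid log replicate 1, 50 of 72 members rose, against 33.6% of all genes, and the median was 1.41. Leaving out early log replicate 1 or 2, or mid log replicate 2 or 3, left 0 calls among the members and among all genes. Without early log replicate 3, 3 of 72 members rose and 0 fell, whereas 16.6% of all genes rose and 20.2% fell. When libraries were scaled by their totals alone, 3 members rose (snR8, snR30 and snR64), 4 fell (snR40, snR66, snR72 and snR87), and the median was 0.21 with the median of all genes at -0.89.

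Late log against mid log gave 0 calls among 71 members at an adjusted p of 0.05 in edgeR, with 17 at an unadjusted p under 0.05 and 4 calls in DESeq2. Over all genes 0.460% were called, 0.307% higher and 0.153% lower, and 19.8% had an unadjusted p under 0.05. The members' median log2 fold change was 0.38, against -0.11 for all genes. In 34 members every late log library was above every mid log library, against 18.9% of all genes tested, and in 0 members below, against 9.39%. Without mid log replicate 1 the comparison changed: 18 members rose in late log and 14 fell, 45.1% of those tested, against 56.1% of all genes in that fit (28.9% higher and 27.2% lower). The members' share was thus below that of all genes. The lowest called member was snR30 with -1.26 and the highest was snR40 with 2.04, and the members' median was 0.11. The 14 that fell were snR30, snR70, snR19, snR51, snR32, snR191, snR86, snR41, snR75, snR24, snR84, snR43, snR17b and snR44, of which 7 were H/ACA members, 6 C/D members and 1 the spliceosomal U1.

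**Figure D3:**
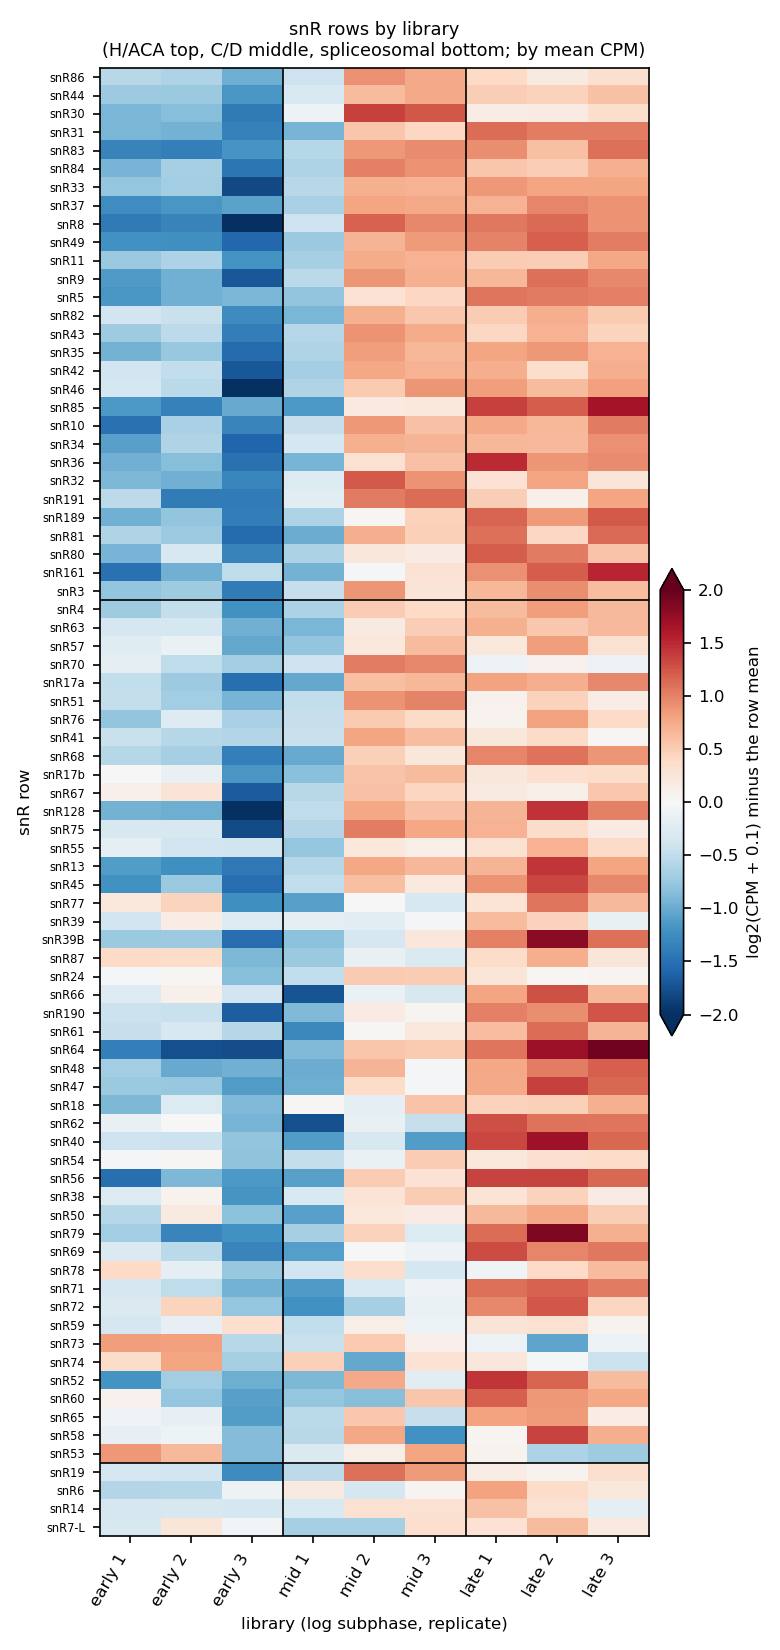
Level of each of the 80 members (vertical axis, H/ACA at the top, C/D in the middle, spliceosomal at the bottom, each by falling mean CPM) in the 9 libraries (horizontal axis), as log2(CPM + 0.1) minus the member's mean over the libraries (colour, red above and blue below that mean). The late log columns are red for most members, and mid log replicate 1 is lower than its partners in all 29 H/ACA members.

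All 29 H/ACA members rose in late log, with log2 fold changes from 0.96 (snR86) to 2.62 (snR85) and a median of 1.87, and in all 29 the late log libraries were all above the early log libraries. All 29 also passed in each fit that left out a library, and 18 passed under every other setting tried. In mid log 16 of the 28 tested rose (median 1.33), beside 20.7% of all genes. This count was 29 of 29 without mid log replicate 1, 3 of 29 without early log replicate 3, 0 when any other single library was left out and 2 with library totals. Of all genes, 33.6% rose without mid log replicate 1 and 16.6% without early log replicate 3. The gene with the most counts, snR86, which guides pseudouridine formation in the large subunit RNA, had 51.0, 49.0 and 38.4 CPM in the early log libraries, 56.4, 141 and 127 CPM in the mid log libraries and 99.4, 85.1 and 94.5 CPM in the late log libraries. Its 2 highest libraries were mid log replicates 2 and 3, and mid log replicate 1 lay between the early log and the late log libraries. The log2 fold change was 0.96 ± 0.14 (SE) in late over early log (adjusted p = 6.66e-04) and 1.25 ± 0.37 in mid over early log (adjusted p = 0.0315).

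The guide snR31, which modifies the small subunit RNA, was highest in late log. It had 15.2, 15.0 and 11.3 CPM in early log, 15.0, 42.4 and 38.5 CPM in mid log and 62.8, 58.7 and 58.5 CPM in late log libraries, so that late log lay above all others while mid log replicate 1 lay inside the early log range. The late over early log2 fold change was 2.07 ± 0.15 (adjusted p = 5.17e-05), and late over mid log was 0.76 ± 0.40 (adjusted p = 0.337). The guide snR83, for the small subunit RNA, averaged 7.50 ± 0.562 CPM in early log, 27.3 ± 12.9 in mid log and 34.4 ± 5.89 in late log (SD, n = 3 each), and snR37, a guide to the large subunit RNA, averaged 5.68 ± 0.332, 17.3 ± 7.90 and 23.4 ± 2.30 CPM in early, mid and late log. Both passed in mid log (1.88 and 1.62 on the log2 scale) and in late log (2.14 and 1.99). The large subunit guides snR84 and snR33 rose in late log by 1.52 ± 0.21 and 1.79 ± 0.28, and in mid log by 1.59 ± 0.48 and 1.43 ± 0.47.

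The largest mid over early log fold change of all members was that of snR8, an H/ACA guide to the large subunit RNA. It had 3.71, 3.94 and 2.34 CPM in early log, 7.50, 22.9 and 19.7 in mid log and 21.1, 22.2 and 18.9 in late log libraries. Every library of the later subphases lay above early log, and mid and late log overlapped. The log2 fold change was 2.34 ± 0.49 in mid over early log (adjusted p = 0.0145) and 2.59 ± 0.23 in late over early log (adjusted p = 9.42e-05). The sequence of snR32 is given above; this guide to the large subunit RNA had 1.16, 1.11 and 0.850 CPM in early log, 1.85, 5.41 and 4.27 in mid log and 2.76, 3.98 and 2.68 in late log libraries, with its 2 highest values in mid log replicates 2 and 3. Its log2 fold changes were 1.89 ± 0.46 in mid log (adjusted p = 0.0185) and 1.54 ± 0.26 in late log (adjusted p = 0.00153), both against early log.

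The H/ACA member with the largest late log fold change, snR85, a predicted guide to the small subunit RNA, had 7.86, 7.04 and 9.69 CPM in the late log libraries, against 1.29, 1.11 and 1.44 CPM in the early log libraries. The mid log libraries had 1.30, 3.44 and 3.48 CPM, with mid log replicate 1 inside the early log range and its partners above it. The late over early log2 fold change was 2.62 ± 0.22 (adjusted p = 7.88e-05), and the mid over early value of 1.10 ± 0.44 did not pass (adjusted p = 0.0773). Among H/ACA members the late log fold change was smaller for longer genes (Spearman's rho -0.65, n = 29 genes, a description, as the genes share the 9 libraries). The sign was the other way in C/D members (0.27, n = 41) and over all tested members (0.19, n = 71).

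Box C/D members were more divided. Of 41 tested, 30 rose in late log, 0 fell and 11 did not pass, with a median log2 fold change of 1.11, and in mid log 5 rose: snR13, snR45, snR51, snR64 and snR128. The mid log share was below the 20.7% of all genes. It came to 20 of 42 without mid log replicate 1 and to 0 without any other single library, and with library totals 1 rose and 4 fell. The counts differed with how a gene is carried in the genome. Of the C/D members with a gene of their own, 19 of 21 tested rose in late log (median 1.92). Of the members in polycistronic clusters, all of which are C/D RNAs, 10 of 14 tested rose (median 0.87), and of the 6 C/D members in introns 1 rose, snR18 (median 0.49). The polycistronic count was 3 of 14 with library totals. It was 5 of 15 with all 9 libraries in 1 fit, and also with the run as a term. Own-gene H/ACA members rose in 27 of 27 with a median of 1.89, near that of the own-gene C/D members. The difference between these groups of genes was not tested.

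The largest late log fold change of all was that of snR64, a C/D guide to the large subunit RNA. Its libraries had 0.447, 0.314 and 0.309 CPM in early log, 0.664, 1.97 and 1.91 CPM in mid log and 2.85, 4.51 and 5.25 CPM in late log. The 3 subphases did not overlap. Its log2 fold changes were 3.49 ± 0.33 in late over early log (adjusted p = 1.18e-04), 2.07 ± 0.50 in mid over early log (adjusted p = 0.0187) and 1.34 ± 0.50 in late over mid log (adjusted p = 0.202). The guide snR56, for the small subunit RNA, had 3.09, 3.11 and 2.68 CPM in late log, against 0.342, 0.571 and 0.464 CPM in early log, and mid log replicate 1 lay inside the early log range with its partners above it (0.491, 1.67 and 1.42 CPM). Its late over early log2 fold change was 2.63 ± 0.26 (adjusted p = 1.39e-04).

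For snR79, a guide to the small subunit RNA, the late log libraries were spread more widely, with 1.82, 3.15 and 1.36 CPM, against 0.447, 0.257 and 0.283 CPM in early log. The groups did not overlap, and the log2 fold change was 2.61 ± 0.42 (adjusted p = 0.00110). The guide to both ribosomal RNAs snR52 rested on few reads, 18, 14 and 11 counts in the late log libraries, against 2, 4 and 3 counts in the early log libraries. Its log2 fold change of 2.89 ± 0.42 passed (adjusted p = 7.33e-04), but snR52 and snR79 were among the 4 called members that did not reach 10 counts in every library. Among the C/D members with the most counts, snR4 rose in late log by 1.43 ± 0.20 (adjusted p = 6.28e-04), with 31.2 ± 2.34 CPM in late log and 11.2 ± 2.80 CPM in early log (SD, n = 3 each), and snR63, a guide to the large subunit RNA, by 1.11 ± 0.19 (adjusted p = 0.00173), with 22.6 ± 1.36 and 10.1 ± 2.32 CPM.

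Own-gene C/D members were also those whose late log libraries most often lay above mid log. In 19 of 24 every late log library was above every mid log library, with a median log2 fold change of 1.15 over the 21 tested, of which 0 passed the adjusted threshold and 10 had an unadjusted p under 0.05. For own-gene H/ACA members the same values were 9 of 27, 0.27, 0 and 4. Of all genes tested, 18.9% had every late log library above every mid log library, and 19.8% had an unadjusted p under 0.05. Without mid log replicate 1, 15 of 48 own-gene members of both classes rose and 6 fell. In that fit 28.9% of all genes rose and 27.2% fell. The largest difference, singled out after its values were seen, was that of snR40, a guide to both ribosomal RNAs. It had 0.868, 0.857 and 0.644 CPM in early log, 0.491, 0.934 and 0.490 CPM in mid log and 3.13, 4.08 and 2.76 CPM in late log libraries. Early and mid log overlapped, and late log lay above both. Late over mid log gave 2.26 ± 0.39 (adjusted p = 0.0597 in edgeR, and 3.74e-04 in DESeq2), and late over early log 2.02 ± 0.26 (adjusted p = 4.02e-04). The other 3 members that DESeq2 called in this comparison were snR39B, snR62 and snR85. The large subunit guide snR62 had 3.37, 2.91 and 2.88 CPM in late log, against 0.318, 1.18 and 0.932 CPM in mid log, and also overlapped between mid and early log (1.18, 1.31 and 0.644 CPM).

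The C/D members that rose in mid log included snR45, which like snR4 directs acetylation of a small subunit cytidine, and snR13, a guide to the large subunit RNA. The first had 1.05, 1.48 and 0.824 CPM in early log, 1.79, 3.93 and 2.94 CPM in mid log and 4.86, 6.60 and 5.09 CPM in late log libraries, with log2 fold changes of 1.37 ± 0.41 in mid log (adjusted p = 0.0330) and 2.25 ± 0.28 in late log (adjusted p = 3.64e-04), both against early log. For snR13 the averages were 1.24 ± 0.144, 4.10 ± 1.79 and 6.30 ± 1.91 CPM along the subphases (SD, n = 3 each), with 1.74 ± 0.43 and 2.30 ± 0.28 on the log2 scale against early log. In neither did an early log library reach a mid log or late log library.

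**Figure D4:**
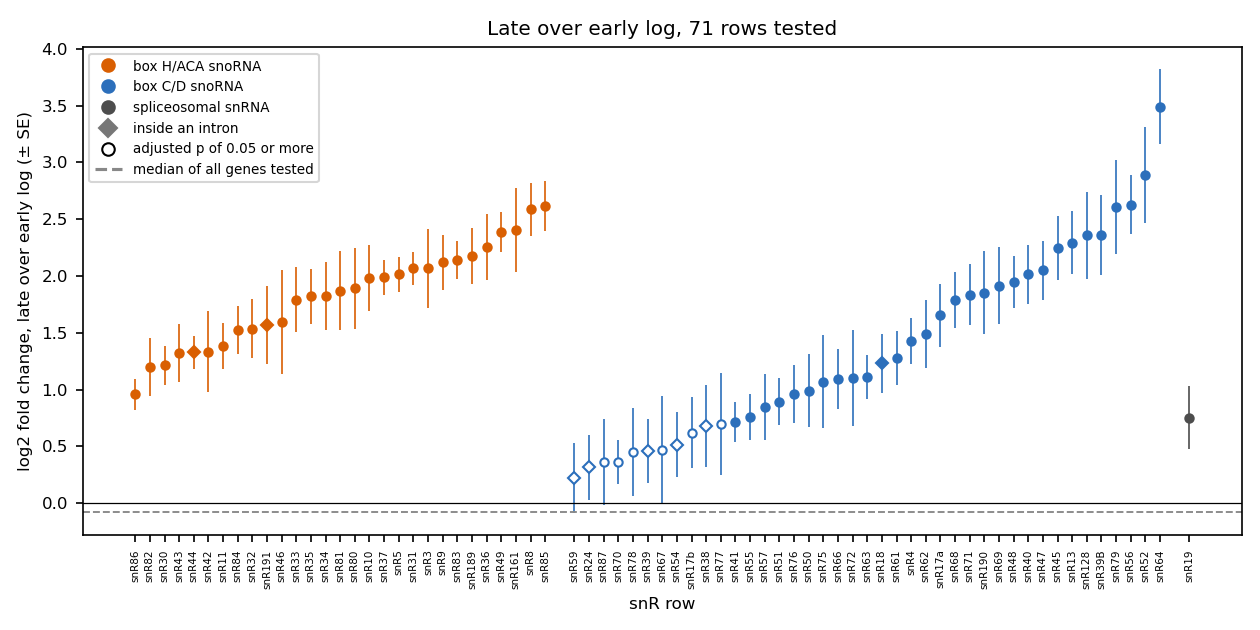
Late over early log2 fold change of the 71 tested members, with its standard error as a bar, ordered by size within class (colour). Diamonds are intronic members, open symbols have an adjusted p of 0.05 or more, and the dashed line is the median of all genes tested, -0.08. All H/ACA symbols are filled and lie between 0.96 and 2.62, and the open ones are all C/D members between 0.22 and 0.70.

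The members that take part in cleavage of the ribosomal RNA precursor are the C/D RNAs snR128 (U14), snR17a and snR17b (2 copies of U3, a core of the small subunit processome) and the H/ACA RNAs snR10 and snR30. In late log 4 of the 5 rose, beside 33.0% of all genes, and in mid log 3 rose, beside 20.7%. As given above, the mid log calls went to 0 when early log replicate 1 or 2, or mid log replicate 2 or 3, was left out. The RNA snR128 had 5.71, 9.80 and 7.21 CPM in late log, against 1.79, 1.74 and 0.747 CPM in early log, with no overlap, and mid log replicates lay at 2.45, 6.10 and 5.35 CPM. Its log2 fold change was 2.36 ± 0.38 in late over early log (adjusted p = 0.00120) and 1.71 ± 0.50 in mid over early log (adjusted p = 0.0303). Of the 245 bases of snR10, 216 are shared on the same strand with the open reading frame YGL088W (5 summed counts). Reads there may be ambiguous, so that the level of snR10 may be understated. The RNA snR10 had 4.26, 3.98 and 5.21 CPM in late log, against 0.816, 1.54 and 0.927 CPM in early log. This was a log2 fold change of 1.98 ± 0.29 (adjusted p = 7.71e-04), and mid over early log gave 1.63 ± 0.47 (adjusted p = 0.0285).

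For snR30, which is essential for release of the small subunit RNA, mid log held the highest libraries. It had 17.4, 18.2 and 12.3 CPM in early log, 30.5, 85.0 and 78.0 CPM in mid log and 36.4, 36.9 and 41.9 CPM in late log libraries, and mid log replicate 1 lay below the late log libraries while its partners lay above them. On the log2 scale the fold change was 2.03 ± 0.43 in mid over early log (adjusted p = 0.0145) and 1.21 ± 0.17 in late over early log (adjusted p = 6.60e-04). The late over early call was lost with the run as a term. Late over mid log was -0.90 ± 0.40 (adjusted p = 0.269), and -1.26 past the threshold without mid log replicate 1.

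The 2 U3 genes gave unequal values. Late log libraries had 13.3, 12.7 and 14.8 CPM on snR17a, against 5.37, 4.54 and 2.60 CPM in early log, and 6.64, 7.18 and 7.37 CPM on snR17b, against 5.71, 5.11 and 2.47 CPM in early log. Both had all late log libraries above early log. The log2 fold change was 1.65 ± 0.27 for snR17a (adjusted p = 0.00134) and 0.62 ± 0.31 for snR17b (adjusted p = 0.110), and the difference between the copies was not tested. The genes are 91.6% identical over 345 bases, so the split of reads between them is uncertain, and 78 bases of snR17a are shared with the open reading frame IRC13 (39 summed counts). In mid over early log snR17b had 0.63 with TMM scaling, and -0.25 with libraries scaled by their totals.

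Polycistronic clusters, 5 in number, held 17 of the members. The pair snR190 and snR128 is transcribed together, and both rose in late log: snR190, a predicted guide to the large subunit RNA, had 3.60, 3.40 and 4.29 CPM in late log, against 1.26, 1.26 and 0.489 CPM in early log, a log2 fold change of 1.85 ± 0.37 (adjusted p = 0.00299). In mid log snR190 had 0.895, 1.97 and 1.81 CPM and a log2 fold change over early log of 0.64 ± 0.49 (adjusted p = 0.307), and snR128 the 1.71 given above. In the cluster of snR57, snR55 and snR61 all 3 rose in late log, with a median of 0.85, and 0 passed in mid log. These calls were not firm: all 3 were lost with the run as a term, those of snR55 and snR57 also with library totals, that of snR57 also with all 9 libraries in 1 fit and without late log replicate 2 or 3, and that of snR55 also without early log replicate 2. In the cluster of snR41, snR70 and snR51 2 of 3 rose in late log (median 0.71), and the late over mid log values were all negative, from -0.85 to -0.34, with 0 past the threshold. The late log calls, of snR41 and snR51, were lost with library totals, with all 9 libraries in 1 fit and with the run as a term. In the cluster that runs over 7 genes between snR78 and snR72, 3 of 5 tested rose in late log and 0 of 6 passed in mid log. Those that rose, snR72, snR75 and snR76, were all lost with library totals. The calls of snR72 and snR75 were also lost with all 9 libraries in 1 fit, and those of snR72 and snR76 with the run as a term. From the pair snR67 and snR53, snR67 alone could be tested and did not pass (0.47 ± 0.47, adjusted p = 0.393).

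Members of a cluster differed in level although they share a precursor. Over the 7-gene cluster the mean level ran from 3.29 CPM per kilobase for snR73 to 70.6 for snR76, and over the pair of snR67 and snR53 from 1.66 for snR53 to 63.9 for snR67. Within snR41, snR70 and snR51 it stayed between 61.5 and 77.8. Mean CPM was lower in late log than in early log in 3 members, snR53, snR73 and snR74, which all sit in clusters and were too low for the test. The RNA snR73, in the 7-gene cluster, had 24, 22 and 7 counts in early log, 7, 10 and 7 in mid log and 6, 2 and 7 in late log libraries. Early log replicate 3 held fewer counts than either of its partners and lay in the range of the late log libraries, and without that library the member passed the low-count filter and fell, as given above.

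For the 8 members that lie in introns, the host gene's own counts were set beside them. The 3 that rose in late log were snR44 in RPS22B, snR18 in EFB1 and snR191 in NOG2. The call of snR44 held in every alternative. That of snR18 was lost with library totals and that of snR191 with the run as a term. Of the hosts, RPS22B (ribosomal protein S22) rose (0.96 ± 0.22, adjusted p = 0.00611), as did TEF4 (elongation factor 1B gamma, 0.45 ± 0.12, adjusted p = 0.0112, and -0.15 with library totals), and RPL7B (ribosomal protein L7) fell (-0.42 ± 0.13, adjusted p = 0.0206). EFB1 and NOG2 did not pass, with 0.05 ± 0.22 and -0.25 ± 0.17. Over the 8 hosts 2 rose and 1 fell, beside 33.0% and 39.2% of all genes, and the median was 0.00. With library totals 0 hosts rose and 4 fell (RPL7B, NOG2, RPL7A and IMD4), with a median of -0.59. In that setting RPS22B had 0.37 (adjusted p = 0.136) and no longer passed, and NOG2 had -0.84 (adjusted p = 0.0035). The difference between member and host was not tested. Reads on an intron that remains in a polyadenylated host transcript fall on the snoRNA too, and these cannot be told apart from reads on the snoRNA's own forms.

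The guide snR44 had the most reads of the 8. It had 26.0, 25.7 and 19.0 CPM in early log, 34.6, 66.8 and 72.2 CPM in mid log and 60.4, 59.2 and 64.5 CPM in late log libraries, and all mid and late log libraries lay above early log. The log2 fold change was 1.31 ± 0.34 in mid log (adjusted p = 0.0223) and 1.33 ± 0.15 in late log (adjusted p = 2.03e-04), both against early log. Per 1000 counts on RPS22B there were 54.8, 54.6 and 70.6 counts on snR44 in early log, 109, 117 and 118 in mid log and 68.8, 78.9 and 78.6 in late log libraries. The mid log libraries, replicate 1 included, were above all others in this ratio.

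For snR191, which guides pseudouridine formation in the large subunit RNA, the ratio to its host NOG2, a GTPase of large subunit assembly, differed between libraries. Per 1000 NOG2 counts there were 11.2, 5.79 and 6.87 counts in early log, 11.2, 48.1 and 41.0 in mid log and 25.6, 28.6 and 30.9 in late log libraries, with mid log replicate 1 inside the early log range. In CPM snR191 had 1.45, 0.742 and 0.747 in early log, 1.82, 4.47 and 4.76 in mid log and 3.04, 2.28 and 3.76 in late log libraries. This gave 1.91 ± 0.50 on the log2 scale in mid log (adjusted p = 0.0218) and 1.57 ± 0.34 in late log (adjusted p = 0.00492), both against early log. The third intronic member that rose, the C/D guide snR18 in EFB1 (elongation factor 1B alpha), had 2.29, 2.33 and 2.76 CPM in late log, against 0.842, 1.34 and 0.850 CPM in early log (1.23 ± 0.26, adjusted p = 0.00418).

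The other intronic members are C/D guides, and none passed in mid or late log. The snR39 libraries had 4.12, 3.64 and 2.36 CPM in late log, against 2.00, 2.91 and 2.16 CPM in early log, and snR59 had 0.608, 0.631 and 0.521 CPM in late log, against 0.368, 0.428 and 0.644 CPM in early log. In both the groups overlapped, with log2 fold changes of 0.46 ± 0.28 (adjusted p = 0.174) and 0.22 ± 0.31 (adjusted p = 0.534), both of which turned negative with library totals (-0.13 and -0.37). For snR24 in ASC1 (the yeast Rack1 protein) the values were 2.26 ± 0.191 CPM in late log and 1.75 ± 0.557 CPM in early log, for snR38 in TEF4 1.77 ± 0.198 and 1.07 ± 0.465 CPM, and for snR54 in IMD4 (inosine monophosphate dehydrogenase) 1.91 ± 0.116 and 1.29 ± 0.403 CPM (SD, n = 3 each). Their late over early log2 fold changes were 0.32 ± 0.29, 0.68 ± 0.36 and 0.51 ± 0.29, with adjusted p values of 0.348, 0.124 and 0.142.

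**Figure D5:**
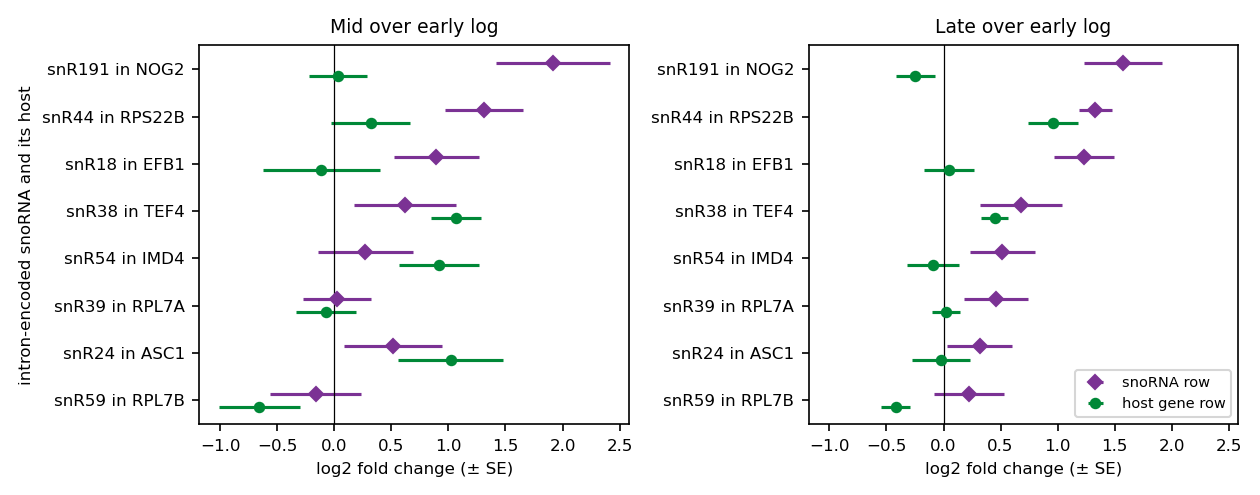
Log2 fold change, with its standard error, of the 8 intronic members (purple diamonds) and of the genes that host them (green circles), 1 line per pair, in mid over early log (left) and late over early log (right). The widest distances in late log are those of snR191 and NOG2 (1.57 and -0.25) and of snR18 and EFB1 (1.23 and 0.05).

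The spliceosomal RNAs gave few reads. U1 (snR19) had 4.03, 3.88 and 2.09 CPM in early log, 3.52, 11.1 and 9.27 CPM in mid log and 5.66, 5.39 and 6.41 CPM in late log libraries. The late log libraries lay above early log and mid log replicates 2 and 3 above both. It rose in late log by 0.75 ± 0.28 (adjusted p = 0.0420), a call lost in 9 of the 14 other settings, and its mid log value of 1.27 ± 0.50 did not pass (adjusted p = 0.0745). U6 (snR6), which RNA polymerase III transcribes, had 1, 1 and 3 counts in early log, 4, 1 and 2 in mid log and 5, 3 and 3 in late log libraries. U4 (snR14) had 1, 1 and 1, 1, 2 and 2 and 3, 2 and 1 counts in the same order of subphases, and the long form of U5 (snR7-L) 1, 3 and 2, 0, 0 and 2 and 2, 3 and 2. A difference in U4, U5 or U6 was not detectable at this depth. 

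Grouped by the ribosomal RNA they modify, guides to the small subunit RNA alone rose in late log in 12 of 16 tested (median log2 fold change 1.94), guides to the large subunit RNA alone in 35 of 41 (median 1.52) and guides to both in 8 of 8 (median 2.03). These stand beside 33.0% of all genes that rose. In mid log the counts were 4 of 17, 12 of 40 and 3 of 7, beside 20.7% of all genes, and as given above 0 members were called in mid log when any of 4 single libraries was left out.

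The genes whose products bind, assemble or process these RNAs were taken as lists, to be set beside the members and beside the 33.0% of all genes that rose and the 39.2% that fell in late log. Among the 8 core proteins 3 rose and 4 fell in late log. Of the C/D proteins, NOP56 and NOP58 fell by 3.56 and 2.06 on the log2 scale, SNU13 rose by 0.74 ± 0.16, and the methyltransferase gene NOP1 did not pass (0.35 ± 0.15, adjusted p = 0.0658, and -0.23 with library totals). Of the H/ACA proteins, the pseudouridine synthase gene CBF5 fell by 4.60 and NHP2 by 1.93, while GAR1 rose by 1.36 ± 0.11 and NOP10 by 0.79 ± 0.22. CBF5 averaged 5.43 ± 0.742 CPM in late log and 127 ± 68.0 CPM in early log (SD, n = 3 each), where early log replicate 3 was the lowest of its subphase. GAR1 had 739, 689 and 786 CPM in late log, against 278, 268 and 284 CPM in early log. In mid log 2 core genes rose (NOP1 and GAR1) and 3 fell (NOP56, NOP58 and CBF5), with 0 calls when early log replicate 1 or 2, or mid log replicate 2 or 3, was left out. With library totals, SNU13 and NOP10 were positive in late log but did not pass.

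Of 10 assembly factors, 8 fell in late log and TAH1 rose (1.63 ± 0.10, adjusted p = 4.04e-05), with a median of -1.20, beside the 39.2% of all genes that fell. The next list was wider than the exosome, with genes for 3′ end formation, oligoadenylation and RNA decay, and it included RAT1, XRN1 and LHP1. Of its 18 genes, 17 fell in late log and 0 rose, with a median of -1.62. Examples are LRP1, an exosome cofactor (-4.17 ± 0.40), the poly(A) polymerase gene TRF5 (-2.89 ± 0.39), the exosome nuclease gene RRP6 (-2.26 ± 0.24) and PAP2, which encodes the poly(A) polymerase Trf4 (-1.41 ± 0.15). The termination factor gene NRD1 did not pass (-0.14 ± 0.24, adjusted p = 0.629). With the sequencing run as a term, 5 of the 18 and 3 of the 10 were called. In RRP6, all late log libraries (15.6, 9.61 and 19.1 CPM) were below all early log libraries (69.3, 70.3 and 64.5 CPM), and mid log replicate 1 had a level close to early log (69.9, 8.80 and 8.39 CPM in mid log). Whether these genes bear on the members' counts was not tested.

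Other RNAs that are made without a poly(A) tail or without a protein product were fewer and mostly did not pass. Of 13 such rows found in the tables, 9 could be tested, and 1 rose in late log, beside 33.0% of all genes. This was SRG1, a noncoding transcript at SER3 (70.8, 72.4 and 69.3 CPM in late log, against 23.0, 21.3 and 19.6 CPM in early log; 1.68 ± 0.11, adjusted p = 4.62e-05). The signal recognition particle RNA SCR1 had 43.0, 38.8 and 49.0 CPM in late log, against 28.1, 25.6 and 7.52 CPM in early log, and did not pass (1.05 ± 0.43, adjusted p = 0.0626). The RNase P RNA RPR1 had 9.21, 8.54 and 1.93 CPM in early log, 10.9, 32.1 and 28.6 CPM in mid log and 6.74, 7.86 and 8.33 CPM in late log libraries, with 0.17 ± 0.51 in late over early log (adjusted p = 0.777). The U2 RNA LSR1, the spliceosomal RNA named outside the snR series, had 0.23 ± 0.46 in late over early log (adjusted p = 0.667, and -0.34 with library totals). In SCR1, RPR1 and LSR1 early log replicate 3 was the lowest early log library. Without that library 4 of the 9 rows rose in late log, beside 38.4% of all genes. The median log2 fold change of the 9 rows was 0.40 in the main fit, against 1.57 for the members. It was 0.49 without early log replicate 3, against 1.33, and 1.68 with the run as a term, against 2.04. The distance between these rows and the members thus depended on the fit, and the difference was not tested.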

How the data were processed

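Polyadenylated RNA of 9 yeast libraries, 3 each from early, mid and late log cultures, was made into directional libraries and sequenced. The authors deposited read counts per gene, made per the submitters' processing notes with FastQC 0.11.9, STAR and HTSeq on build R64. The strand setting, the feature type counted and the annotation release are not given in the sources used here. Each table ended in 5 summary lines, left out of totals and tests; reads on no feature came to 6.65% to 10.7% of the gene counts. The libraries held 22830165 to 34358259 gene counts, and counting error alone limits members with few counts.

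Counts were tested with edgeR 4.0.16 in R 4.3.3: 1 fit of 6 libraries per pair of subphases, filterByExpr on low counts, TMM scaling, the quasi-likelihood test (glmQLFit and glmQLFTest) and Benjamini-Hochberg adjustment over all genes tested, with calls at 0.05. Each standard error is the log2 fold change over the square root of F. The script was tested on simulated data. Alternatives were DESeq2 1.42.0 (size factors, or its own test), scaling by library totals, 2 other filters, all 9 libraries in 1 fit, a replicate block, the sequencing run as a term (runs from the study's primer table), and leaving out each library. Classes, positions, roles and sequences came from RefSeq R64, with copies found by blastn 2.17.0+.

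The members and gene lists were chosen with earlier results of these data known. Named are the 10 members with the highest mean CPM, the spliceosomal RNAs with U3, U14, snR10, snR30 and snR190, intronic members with their hosts, up to 5 members with the highest and the lowest fold change per comparison among those called without overlap, and the rows next to the minimum of 10 counts; other names follow a count. Sample titles number the replicates, and the study describes biological triplicates. Each p-value sets the difference between subphases against the spread between the libraries of a subphase.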

Additional observations from a re-analysis of the deposited data

How the results depend on the processing

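Of the alternatives for single named members, 994 gave the direction and side of the threshold reported, 100 lost the call, 37 gained one and 50 changed sign; the cause was not tested. Late log against early log had 43 to 60 called members over the settings, 55 to 60 with a library left out (the 60 without early log replicate 3 being 59 higher and snR73 lower), and 33 members were called in every alternative. Mid log against early log went to 7 calls with library totals, 38 with DESeq2's test, 34 with all 9 libraries in 1 fit and 0 to 50 with a library left out. Late log against mid log went to 11, 4 and 2 in the same settings and 0 to 32 with a library left out. Library totals moved the median of all genes to -0.89 (mid log against early log) and -0.68 (late log against early log), and the members' medians to 0.21 and 0.98. The members' median less that of all genes was then 1.10 and 1.66, against 1.22 and 1.65 with TMM. Over all genes, library totals gave 216 higher and 2127 lower in mid log (1233 and 1441 with TMM) and 839 higher and 3291 lower in late log (1963 and 2331), both against early log, and 365 higher and 88 lower in late log against mid log (18 and 9). By summed CPM the ratio of the members' share to early log was 2.35 for mid log and 2.80 for late log. 

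With the run as a term, the late log calls against early log were 3 of the assembly factors, 5 of the processing genes, 1 of the intron hosts and 3 of the other noncoding rows. Of all genes, 24.1% were called in that fit. The other noncoding rows had 2 calls with library totals, 3 with DESeq2's test, 2 with no filter, 2 with the replicate block and 1 to 4 with a library left out; the intron hosts had 2 to 5. Same-numbered replicates did not pair, with correlations of their deviations from -0.334 to 0.361, and the replicate block gave 18 calls among the members in mid log and 59 in late log, both against early log, and 0 in late log against mid log.

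Sign changes of mid log against early log came with library totals in snR17b (-0.25), snR190 (-0.21), snR24 (-0.34), snR38 (-0.22), snR39 (-0.78), snR54 (-0.57) and snR63 (-0.31), with no filter (-0.02) and at least 10 counts in every library (-0.05) in snR39, with DESeq2 size factors in snR59 (0.00), and with a library left out in snR39 (-0.09 to 0.20), snR54 (-0.07 to 0.52) and snR59 (-0.35 to 0.10). For late log against early log they came with library totals in snR24 (-0.27), snR39 (-0.13), snR54 (-0.07) and snR59 (-0.37), and with the run as a term in snR59 (-0.14). For late log against mid log they came with library totals in snR17b (0.29), snR24 (0.07), snR38 (0.31), snR44 (0.30), snR84 (0.24) and snR86 (0.00), with all 9 libraries in 1 fit in snR17b (0.06), snR38 (0.13) and snR44 (0.09), and with the replicate block in snR17b (0.05), snR38 (0.03), snR44 (0.02) and snR84 (0.02). With a library left out, the same comparison ranged over both signs in snR10 (-0.07 to 0.57), snR17b (-0.47 to 0.16), snR33 (-0.06 to 0.48), snR37 (-0.07 to 0.51), snR38 (-0.27 to 0.22), snR44 (-0.35 to 0.15), snR54 (-0.08 to 0.54), snR8 (-0.21 to 0.47), snR83 (-0.19 to 0.44) and snR84 (-0.54 to 0.12). Counts under 100 in all limit what U4, U5 and U6 can show.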
